A study of Homo sapiens with 26 samples.

Results

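TMEM259 mRNA was lowered with 2 siRNAs in 786-O cells, which derive from a human clear cell renal carcinoma and have no working VHL, and the poly(A) RNA was compared with that of cells given a non-targeting siRNA. The comparison holds 6 of the 26 libraries of the series: 2 libraries of TMEM259 siRNA 5, 2 of TMEM259 siRNA 6 and 2 of the control siRNA, chosen by the treatment named in the labels. All cells were grown in RPMI with serum and transfected with DharmaFECT 1. They were split at 24 h and collected at 48 h, and sequencing gave paired reads of 42 bases. Cells given siRNAs against another gene, FIBP (siRNA 6 and siRNA 7, 2 libraries each), were normalized in the same table with the same controls. They serve as a second knockdown against which the TMEM259 libraries can be set. Everything was done in 1 cell line with siRNAs of 1 supplier. The labels do not say whether the 2 libraries of a group are separate transfections. The p-values therefore rest on a spread between libraries that may be technical and that was largely shared across genes.

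TMEM259, named C19orf6 in the sample titles, encodes membralin, a protein that spans the membrane of the endoplasmic reticulum (ER). Membralin works with the ubiquitin ligase RNF185 and the ubiquitin-like proteins TMUB1 and TMUB2 in ER-associated degradation, in which membrane proteins are pulled out of the ER and handed to the proteasome. The submitters list TMEM259 with genes of nuclear speckles, where splicing and mRNA export factors gather in the nucleus. In clear cell renal carcinoma the loss of VHL leaves the hypoxia-inducible factor HIF active at normal oxygen.

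The deposited values are gene counts divided by 1 size factor per library and are called normalized reads here. The 6 libraries held 10426401 to 17018483 reads in genes, and replicate libraries differed by 1.52 to 1.86 times counting error, as chi-square per degree of freedom in the 5 groups of the table. Of 12140 genes in the table, 11768 had a mean of at least 10 over its 10 libraries and were tested. Of 8 genes listed as marks of the line, 6 were in the table, and the 4 TMEM259 libraries and both controls all held PAX8, EPAS1 (which encodes a HIF alpha subunit) and VIM. CA9 and NDUFA4L2, also listed as marks of the line, were not among the 6. PAX8 had 2136 and 2273 normalized reads with siRNA 5 and 2051 and 2028 with siRNA 6, against 1935 and 1869 in the controls. Of 19 markers of leukocytes, endothelium, fibroblasts and epithelium, 9 were in the table, with summed levels of 12546 to 16703 in TMEM259 knockdown libraries and 13434 to 13470 in controls. The 9 were CD68 of leukocytes, PDGFRB, COL1A1, LUM and ACTA2 of fibroblasts, and EPCAM, KRT18, KRT8 and KRT19 of epithelium. The leukocyte genes PTPRC and CD3E and the endothelial genes PECAM1 and VWF were among the 10 not analysed here.

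Both siRNAs lowered their target, siRNA 5 more than siRNA 6. TMEM259 had 659 and 679 normalized reads with siRNA 5 and 1045 and 1089.9 with siRNA 6, against 2269.6 and 2148 in the controls. The groups did not overlap. siRNA 5 left 30.3% of the control level and siRNA 6 48.3%, log2 differences of -1.72 and -1.05. The mean of both siRNAs was -1.38 ± 0.04 (SE) against control, with a Benjamini-Hochberg adjusted p of 1.38e-27 in limma. The 2 siRNAs also differed from each other, by -0.67 (siRNA 5 minus siRNA 6, adjusted p = 2.02e-14).

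On the mean of both siRNAs, the mRNAs of membralin's partners did not pass the test, but RNF185 did with siRNA 5. RNF185, the ubiquitin ligase of the complex, had 461 and 462 normalized reads with siRNA 5 and 358 and 377 with siRNA 6, against 369 and 360.2 in controls, so that siRNA 5 libraries alone lay apart. Its mean difference was 0.18 (95% interval 0.03 to 0.32, adjusted p = 0.0811). With siRNA 5 it rose by 0.34 (adjusted p = 0.00156), and siRNA 5 lay 0.33 above siRNA 6 (adjusted p = 0.00152). TMUB1, a ubiquitin-like membrane protein, differed by 0.08 (-0.02 to 0.18, adjusted p = 0.284) and its relative TMUB2 by -0.09 (-0.24 to 0.07, adjusted p = 0.505). Of 10 tested neighbours of TMEM259 on chromosome 19, 2 passed the test, both lower, where 8.06% of all tested genes were lower. They were POLR2E, an RNA polymerase II subunit, at -0.13 ± 0.04 and GPX4, which reduces lipid peroxides, at -0.12 ± 0.04. POLR2E did not pass without control replicate 1 (-0.11). GPX4 did not pass without control replicate 1 (-0.14) or without control replicate 2 (-0.09), nor without replicate 2 of either TMEM259 siRNA (-0.11 without that of siRNA 5 and -0.09 without that of siRNA 6).

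**Figure D1:**
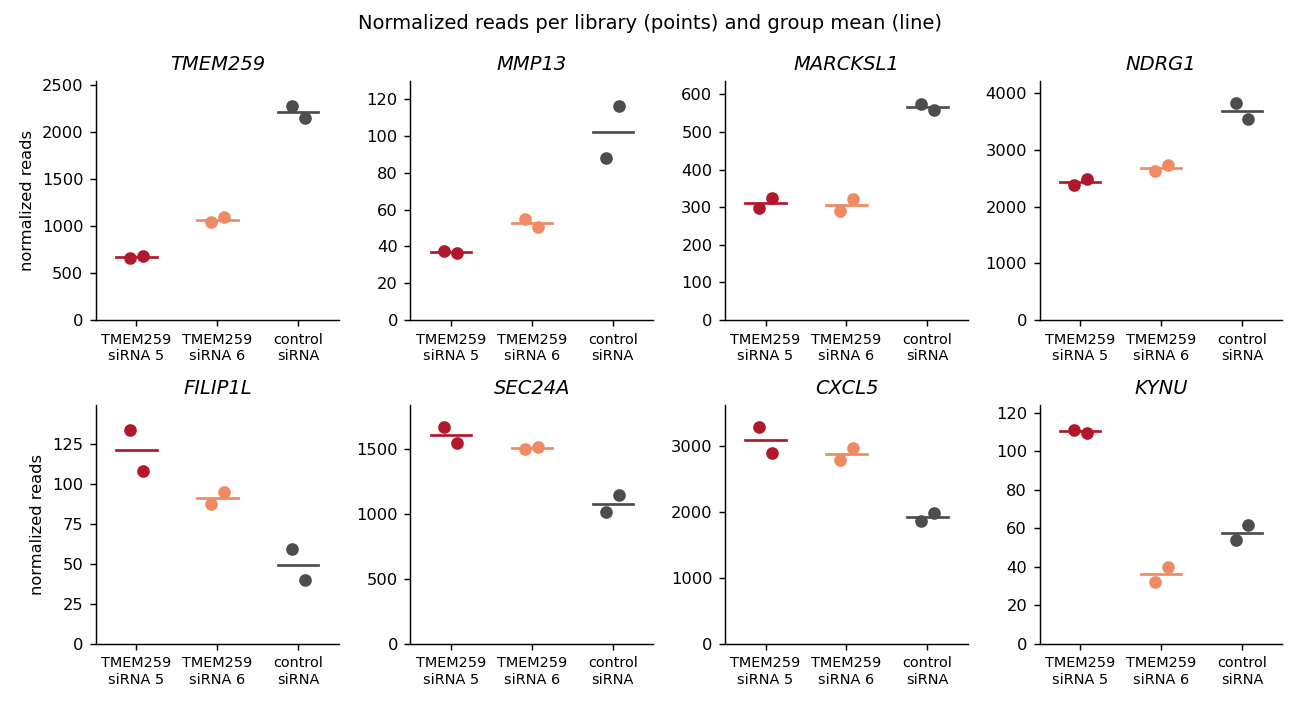
Normalized reads per library for 8 genes, with points for libraries, lines for group means, and TMEM259 siRNA 5, TMEM259 siRNA 6 and control siRNA from left to right on linear axes from 0. TMEM259 lay between 659 and 1089.9 in knockdown libraries, against 2148 to 2269.6 in controls, and KYNU is an example of a gene that the 2 siRNAs moved in opposite directions.

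Many genes differed by a little, as counted in bulk RNA, where fewer cells of a type and less RNA per cell cannot be told apart. On the mean of both siRNAs, 1856 genes (15.8%) were called: 908 genes (7.72% of those tested) higher and 948 (8.06%) lower at an adjusted p below 0.05. In 705 of the higher genes (5.99%) and 698 of the lower ones (5.93%), all 4 knockdown libraries also lay beyond both control libraries. Such genes are called separated here. Of them, 301 higher and 284 lower genes were also called with each siRNA on its own. DESeq2, run on whole reads recovered from the values of all libraries, called 500 genes higher and 483 lower. The median absolute log2 difference of the 1403 separated genes was 0.23, with a 10th to 90th percentile of 0.14 to 0.46, and 36 rose and 38 fell over 1.5-fold. More than 2-fold changes were seen in 9 that rose and 5 that fell, TMEM259 included. These counts lean on the 2 controls: without control replicate 1, 374 genes were called higher and 404 lower, of which 350 and 355 were separated. Without control replicate 2 the calls were 553 higher and 493 lower, with 520 and 432 separated.

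**Figure D2:**
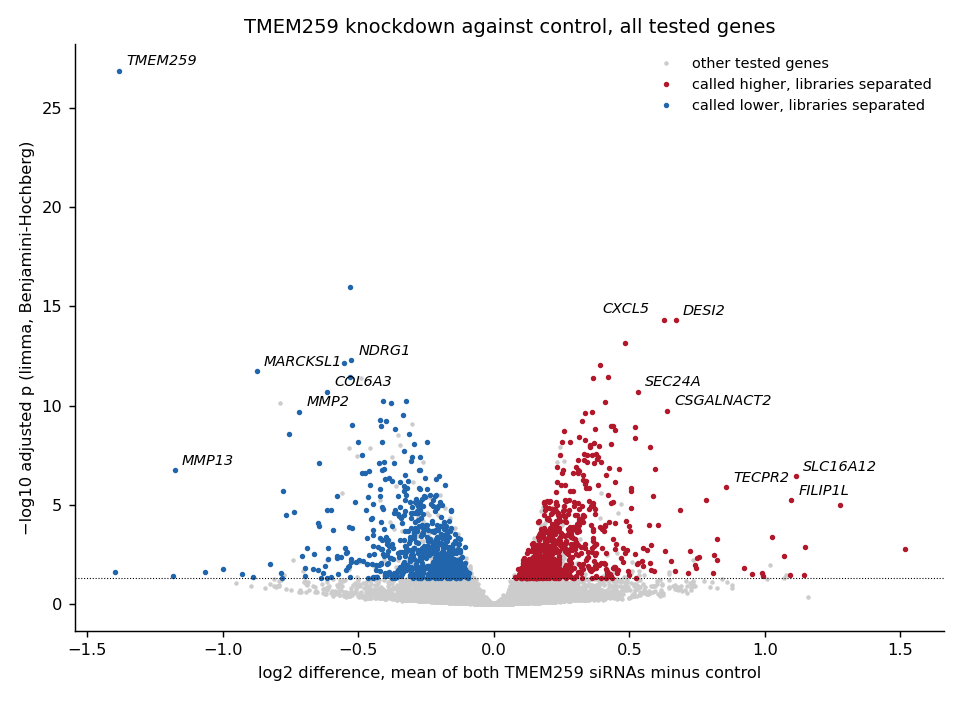
Each point is 1 of 11768 tested genes, with the log2 difference between the mean of both TMEM259 siRNAs and control on the horizontal axis and −log10 of the limma adjusted p on the vertical axis. Red genes (705) rose and blue genes (698) fell with separated libraries, the dotted line marks an adjusted p of 0.05, and TMEM259 stands alone at the top left.

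The 12 genes named for falling with both siRNAs, at a table mean of at least 50, include 2 matrix metalloproteinases and a regulator of actin at membranes. MMP13, a collagenase, had 37.5 and 36.5 normalized reads with siRNA 5 and 54.9 and 50.5 with siRNA 6, against 87.9 and 116 in controls. It fell by 1.18 ± 0.15 on the log2 scale (adjusted p = 1.78e-07). MMP2, a gelatinase, had 307 and 355 with siRNA 5 and 401 and 379 with siRNA 6, against 604 and 579 in controls, a difference of -0.72 ± 0.07 (adjusted p = 2.07e-10). MARCKSL1, a MARCKS-like protein that binds actin and membranes, had 298 and 324 with siRNA 5 and 289.5 and 322 with siRNA 6, against 574 and 558 in controls, a difference of -0.88 ± 0.07 (adjusted p = 1.82e-12). For all 3 the knockdown libraries lay below both controls, with siRNA 5 lower than siRNA 6 for MMP13 (-0.50, adjusted p = 0.0283) and MMP2 (-0.24, adjusted p = 0.02). PORCN, the ER acyltransferase that attaches a fatty acid to Wnt proteins, fell to 217 and 242 with siRNA 5 and 249 and 252 with siRNA 6, against 409 and 402 in controls (-0.76 ± 0.08, adjusted p = 2.88e-09). SCG5, a secretory chaperone of the prohormone convertase PC2, had 187 and 185 with siRNA 5 and 164 and 161 with siRNA 6, against 282 and 264 in controls (-0.65 ± 0.08, adjusted p = 8.05e-08). EVI2A, ZNF428, STXBP4, CCDC150, HSF2BP, LINC00909 and ANKRD36C completed the 12 by the naming rule, with differences that ranged from -0.77 (EVI2A) to -0.61 (STXBP4). Of these, LINC00909 (-0.58) and STXBP4 (-0.57) did not pass without control replicate 1, and ANKRD36C did not pass with either control left out (-0.55 without replicate 1, -0.70 without replicate 2) or without replicate 2 of siRNA 5 (-0.54) or of siRNA 6 (-0.53).

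The 12 genes named for rising with both siRNAs have varied roles. FILIP1L, a filamin A interacting protein, had 134 and 108 normalized reads with siRNA 5 and 87.9 and 95.3 with siRNA 6, against 59.3 and 39.7 in controls, a difference of 1.10 ± 0.17 (adjusted p = 6e-06). TECPR2, which acts in autophagy and ER exit, had 135 and 145 with siRNA 5 and 132 and 135 with siRNA 6, against 85.8 and 65.2 in controls (0.86 ± 0.12, adjusted p = 1.3e-06). The knockdown libraries of both genes lay above both controls. L1CAM, a cell adhesion molecule, had 99.5 and 82.5 with siRNA 5 and 65.9 and 86.5 with siRNA 6, against 44.5 and 48.2 in controls (0.82 ± 0.17, adjusted p = 0.000538). DNAJC6, auxilin, which uncoats clathrin vesicles, had 174 and 159 with siRNA 5 and 189.7 and 188 with siRNA 6, against 106 and 113 in controls (0.69 ± 0.12, adjusted p = 1.88e-05). CXCL5, a chemokine for neutrophils, rose to 3294 and 2902 with siRNA 5 and 2793 and 2969 with siRNA 6, against 1873 and 1995 in controls (0.63 ± 0.04, adjusted p = 5.08e-15). All 4 knockdown libraries of these genes lay above both controls. DESI2, of the desumoylating isopeptidase family (0.67 ± 0.05), CSGALNACT2, which starts chondroitin sulfate chains (0.64 ± 0.06), GNPNAT1, an enzyme of UDP-GlcNAc synthesis (0.52 ± 0.06), and RGL1, a Ral exchange factor (0.53 ± 0.15), also rose. MAPK8IP2, a JNK scaffold (0.75), and GPRC5A, an orphan receptor (0.55), were called too but, like RGL1, did not pass without control replicate 1 (0.47 for MAPK8IP2, 0.42 for GPRC5A and 0.28 for RGL1), and the flippase ATP8B3 (0.58) did not pass without control replicate 2 (0.44).

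Genes of the early secretory pathway gave more calls higher than lower. COPII coats carry cargo out of the ER, COPI coats return it, and KDEL receptors retrieve ER residents. All 35 members of the list passed the filter on low values, and 18 were called higher and 3 lower, against 7.72% higher and 8.06% lower of all tested genes. Separated libraries were seen in 17 that rose and 2 that fell. With siRNA 5, 18 were higher and 5 lower, and with siRNA 6, 17 and 2. Over all 11768 tested genes, siRNA 5 had 1274 higher and 1410 lower (12%), and siRNA 6 had 1102 (9.36%) and 1180 (10%). The median difference of the 35 members was 0.11, against -0.01 over all tested genes. SEC24A, a COPII cargo adaptor, had 1674 and 1550.0 normalized reads with siRNA 5 and 1502 and 1515 with siRNA 6, against 1014 and 1147 in controls, a difference of 0.53 ± 0.05 (adjusted p = 2.01e-11). KDELR3, a KDEL receptor, had 1303 and 1307 with siRNA 5 and 1030.3 and 1075 with siRNA 6, against 888 and 928 in controls (0.37 ± 0.05, adjusted p = 7.97e-08). GOLGA2, the cis-Golgi matrix protein GM130, had 2033 and 2071 with siRNA 5 and 2054 and 1991 with siRNA 6, against 1588 and 1595 in controls (0.36 ± 0.04, adjusted p = 1.02e-08). In each of these genes the 4 knockdown libraries lay above both controls. The COPI subunits ARCN1 (0.34), COPA (0.28), COPB1 (0.25) and COPG1 (0.19) and the COPII subunits SEC24D (0.27), SEC13 (0.24), SEC23B (0.22) and SEC31A (0.16) rose as well. BET1, a SNARE of ER to Golgi transport (-0.22 ± 0.05), and TMED10, a p24 cargo receptor (-0.22 ± 0.05), fell with separated libraries. COPZ1, a COPI subunit, was called lower at -0.17, with -0.47 for siRNA 5 and 0.13 for siRNA 6. Without control replicate 1 the list had 12 calls higher and 1 lower, and COPG1 (0.13), SEC23B (0.17), SEC31A (0.13), BET1 (-0.20) and TMED10 (-0.19) did not pass.

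The promoters of this list often hold a binding sequence of the unfolded protein response factors. The list was written from textbook knowledge, so this frequency is a trait of the list and not a result of the knockdown. The search took TGACGTGG (the unfolded protein response element) and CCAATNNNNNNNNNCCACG (the ER stress response element) on both strands, from 250 bases before to 50 after each start in RefSeq on GRCh38.p14. The CCACG end of the ER stress element is the reverse complement of the CGTGG end of the unfolded protein response element. Of 30 members with a promoter in the table of sequences, 8 (26.7%) held a match, against 0.806% of all 35116 promoters and 1.18% of the 9119 tested genes with one. Of the 8 members with a match, 5 rose and none fell with separated libraries, and of the 22 without one, 10 rose and 2 fell. Over all tested genes, 3.2% of the 562 separated genes that rose and had a promoter held a match, and 1.63% of the 551 that fell, with no test made. The promoters of SEC24A and KDELR3, the 2 members with a match that rose most, are shown because their values are given above. Each runs 5′ to 3′ along the gene's own strand, with the match, on either strand, in capitals.
SEC24A, chr5:134648535-134648834, plus strand: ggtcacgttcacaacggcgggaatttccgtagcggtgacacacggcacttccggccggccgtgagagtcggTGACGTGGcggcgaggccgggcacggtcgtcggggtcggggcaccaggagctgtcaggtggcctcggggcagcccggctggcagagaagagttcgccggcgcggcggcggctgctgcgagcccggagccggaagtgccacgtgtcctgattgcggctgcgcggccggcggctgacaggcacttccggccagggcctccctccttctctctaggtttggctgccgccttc
KDELR3, chr22:38467846-38468145, plus strand: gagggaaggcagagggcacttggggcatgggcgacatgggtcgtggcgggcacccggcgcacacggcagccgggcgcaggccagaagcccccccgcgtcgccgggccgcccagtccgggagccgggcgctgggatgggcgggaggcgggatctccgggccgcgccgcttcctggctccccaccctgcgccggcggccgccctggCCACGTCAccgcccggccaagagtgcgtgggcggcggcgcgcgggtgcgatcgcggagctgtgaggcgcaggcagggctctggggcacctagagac

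**Figure D3:**
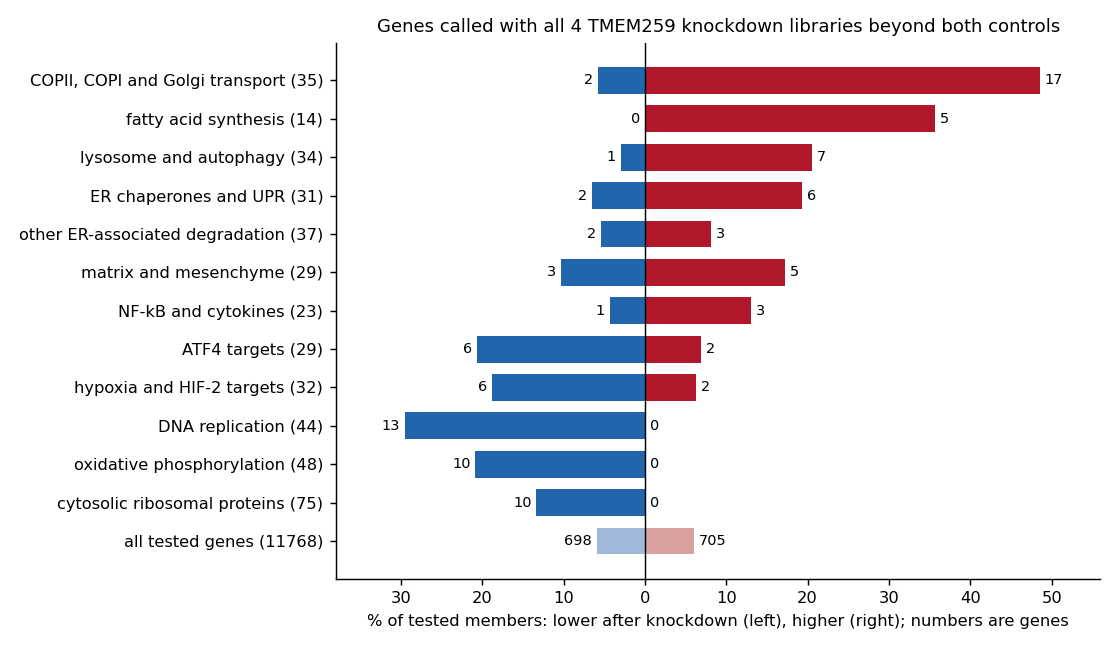
Share of the tested members of 12 gene lists that fell (blue, to the left) or rose (red, to the right) after TMEM259 knockdown with all 4 knockdown libraries beyond both controls, with counts at the bars and the tested members in parentheses. The bottom bars give all 11768 tested genes, at 5.99% higher and 5.93% lower, and transport genes reach 17 of 35 higher while DNA replication genes reach 13 of 44 lower.

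Chaperones and sensors of the ER gave calls in both directions. Of 31 tested, 7 were called higher and 3 lower, where 7.72% of all tested genes were higher and 8.06% lower, and 6 and 2 of them had separated libraries. With siRNA 5, 10 were higher and 1 lower, and with siRNA 6, 7 and 5. The counts over all 11768 tested genes were 1274 higher and 1410 lower (12%) with siRNA 5, and 1102 (9.36%) and 1180 (10%) with siRNA 6. EIF2AK3, the stress sensor PERK, had 759.7 and 734 normalized reads with siRNA 5 and 631 and 667 with siRNA 6, against 546 and 562 in controls (0.33 ± 0.06, adjusted p = 7.3e-05). CANX, the lectin chaperone calnexin, rose by 0.25 ± 0.03, while its soluble relative CALR fell by 0.13 ± 0.03. The usual reporters of ER stress gave small values: HSPA5, the chaperone BiP, differed by -0.01 (95% interval -0.07 to 0.05, adjusted p = 0.865), with 0.08 for siRNA 5 and -0.10 for siRNA 6, and DDIT3, the stress factor CHOP, by 0.05 (-0.16 to 0.26, adjusted p = 0.815). XBP1, a transcription factor of the unfolded protein response, was called at 0.14 with overlapping libraries, with 0.27 for siRNA 5 and 0.00 for siRNA 6, and did not pass without control replicate 1 (0.11). The 3 lower calls dropped to 1 without replicate 1 of siRNA 6 or without control replicate 2.

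Of 37 other factors of ER-associated degradation, 6 were called higher and 4 lower, where 7.72% of all tested genes were higher and 8.06% lower. Of the 37, 3 and 2 were separated, where 5.99% and 5.93% of all tested genes were. SYVN1, the ubiquitin ligase HRD1, had 320.0 and 319 normalized reads with siRNA 5 and 333 and 308 with siRNA 6, against 247 and 249.6 in controls (0.37 ± 0.08, adjusted p = 0.00066). UFD1, a cofactor of the extraction ATPase VCP, fell by 0.22 ± 0.05 and the lectin OS9 by 0.17 ± 0.04. Neither UFD1 nor OS9 passed without control replicate 1 (-0.15 each). VCP itself differed by -0.05 (adjusted p = 0.24). The higher calls fell to 3 with either control left out, and the lower calls to 1 without control replicate 1 and to 2 without replicate 2 of siRNA 5 or replicate 1 of siRNA 6.

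On the mean of both siRNAs, lists of lipid synthesis and of lysosomes gave more calls higher than lower, but for cholesterol synthesis and lysosomes this held for siRNA 5 and not for siRNA 6. Of 14 tested genes of fatty acid synthesis, 7 were called higher and 1 lower, with 5 and 0 separated, and the median difference was 0.16, where 7.72% of all tested genes were higher and 8.06% lower. With siRNA 5, 8 were higher and 1 lower, and with siRNA 6, 4 and 0. For all 11768 tested genes these counts were 1274 and 1410 (12%) with siRNA 5, and 1102 (9.36%) and 1180 (10%) with siRNA 6. SREBF1, the transcription factor that drives this pathway, had 336 and 349 normalized reads with siRNA 5 and 340.4 and 312 with siRNA 6, against 246 and 256 in controls (0.41 ± 0.08, adjusted p = 0.000113). FASN, fatty acid synthase, rose by 0.23 ± 0.04 and FADS2, a desaturase, by 0.24 ± 0.04. Without control replicate 1, 3 genes of the list were called higher, and without control replicate 2 none was called lower. Of 24 genes of cholesterol synthesis, 6 were called higher and 1 lower, with 1 and 1 separated. The calls were 7 higher and 1 lower with siRNA 5, and 2 and 4 with siRNA 6. Set against siRNA 6, siRNA 5 had 9 higher and 0 lower, where 15.6% of all tested genes were higher and 16.5% lower. Of 34 lysosomal and autophagy genes, 9 were called higher and 2 lower, with 7 and 1 separated. With siRNA 5 these were 12 higher and 1 lower, and with siRNA 6, 6 and 7 (median -0.01), and siRNA 5 had 17 higher and 1 lower than siRNA 6. WIPI1, which binds PI3P on forming autophagosomes, had 396 and 343 with siRNA 5 and 259 and 275 with siRNA 6, against 214 and 228 in controls (0.50 ± 0.08, adjusted p = 1.51e-05), and LAMP2, a lysosomal membrane protein, rose by 0.23 ± 0.04. Without control replicate 1 the lysosomal calls were 5 higher and 0 lower.

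DNA replication genes gave lower calls alone. All 44 members passed the filter, and 15 were called lower and 0 higher, with 13 separated, against 8.06% lower of all tested genes. With siRNA 5, 19 were lower, and with siRNA 6, 9, with 0 higher for each, where 12% and 10% of all tested genes were lower. The median difference was -0.10, and 39 of the 44 values were below 0. CCNE1, cyclin E1, which drives entry into S phase, had 179 and 176 normalized reads with siRNA 5 and 148 and 173 with siRNA 6, against 252 and 233 in controls (-0.52 ± 0.10, adjusted p = 0.00015). RRM2, the regulated subunit of ribonucleotide reductase, had 6572 and 6719.9 with siRNA 5 and 7493 and 7590.2 with siRNA 6, against 8299.7 and 8139 in controls (-0.22 ± 0.03, adjusted p = 4.89e-07). CHAF1A, a histone chaperone of the replication fork, had 1142 and 1194 with siRNA 5 and 1099 and 1114 with siRNA 6, against 1319 and 1372 in controls (-0.24 ± 0.05, adjusted p = 0.000196). All 3 had every knockdown library below both controls. The flap nuclease FEN1 (-0.22), the polymerase subunit POLE (-0.21), the helicase subunits MCM3 (-0.20) and MCM4 (-0.19) and the sliding clamp PCNA (-0.11) fell too. E2F1, the factor that activates many of them, was called at -0.19, with -0.35 for siRNA 5 and -0.03 for siRNA 6. TMEM259 and control libraries were left out in turn, and FIBP libraries were not. Without control replicate 1, 9 of the list were called lower and 0 higher, and without any other single library 10 to 15 were called lower and 0 higher. E2F1 (-0.19) and PCNA (-0.13) did not pass without control replicate 1, and PCNA also did not pass without control replicate 2 (-0.09), replicate 1 of siRNA 5 (-0.10) or replicate 1 of siRNA 6 (-0.11). Of 41 mitosis genes, 4 were called higher and 5 lower, and the difference between the lists was not tested.

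E2F binding sequences are frequent in promoters of this list. The list was written from textbook knowledge, so this frequency is a trait of the list and not a result of the knockdown. TTTGGCGC and TTTCGCGC, which differ in 1 letter, were searched on both strands in the same windows. Of 38 members with a promoter, 13 (34.2%) held a match, against 1.15% of all 35116 promoters and 2.14% of tested genes with one. Of those 13, 3 fell with separated libraries, and of the 25 without a match, 9 fell. Over all tested genes, 2.9% of the separated genes that fell held a match, and 0.89% of those that rose, with no test made. The promoters of POLE and MCM3, which hold a match and fell with separated libraries, are shown in the same way. Capitals mark the match on either strand.
POLE, chr12:132687293-132687592, minus strand: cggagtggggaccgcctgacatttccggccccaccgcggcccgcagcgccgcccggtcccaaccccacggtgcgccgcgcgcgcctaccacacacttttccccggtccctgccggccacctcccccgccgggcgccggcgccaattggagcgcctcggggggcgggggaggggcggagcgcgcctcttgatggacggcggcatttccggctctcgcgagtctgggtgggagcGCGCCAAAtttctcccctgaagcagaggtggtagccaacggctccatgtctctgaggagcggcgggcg
MCM3, chr6:52284693-52284992, minus strand: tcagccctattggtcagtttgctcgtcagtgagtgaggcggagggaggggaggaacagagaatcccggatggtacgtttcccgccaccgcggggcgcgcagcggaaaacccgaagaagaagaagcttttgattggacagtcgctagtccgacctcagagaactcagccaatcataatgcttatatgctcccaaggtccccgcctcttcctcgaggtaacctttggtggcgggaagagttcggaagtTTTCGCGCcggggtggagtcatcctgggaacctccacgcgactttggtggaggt

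**Figure D4:**
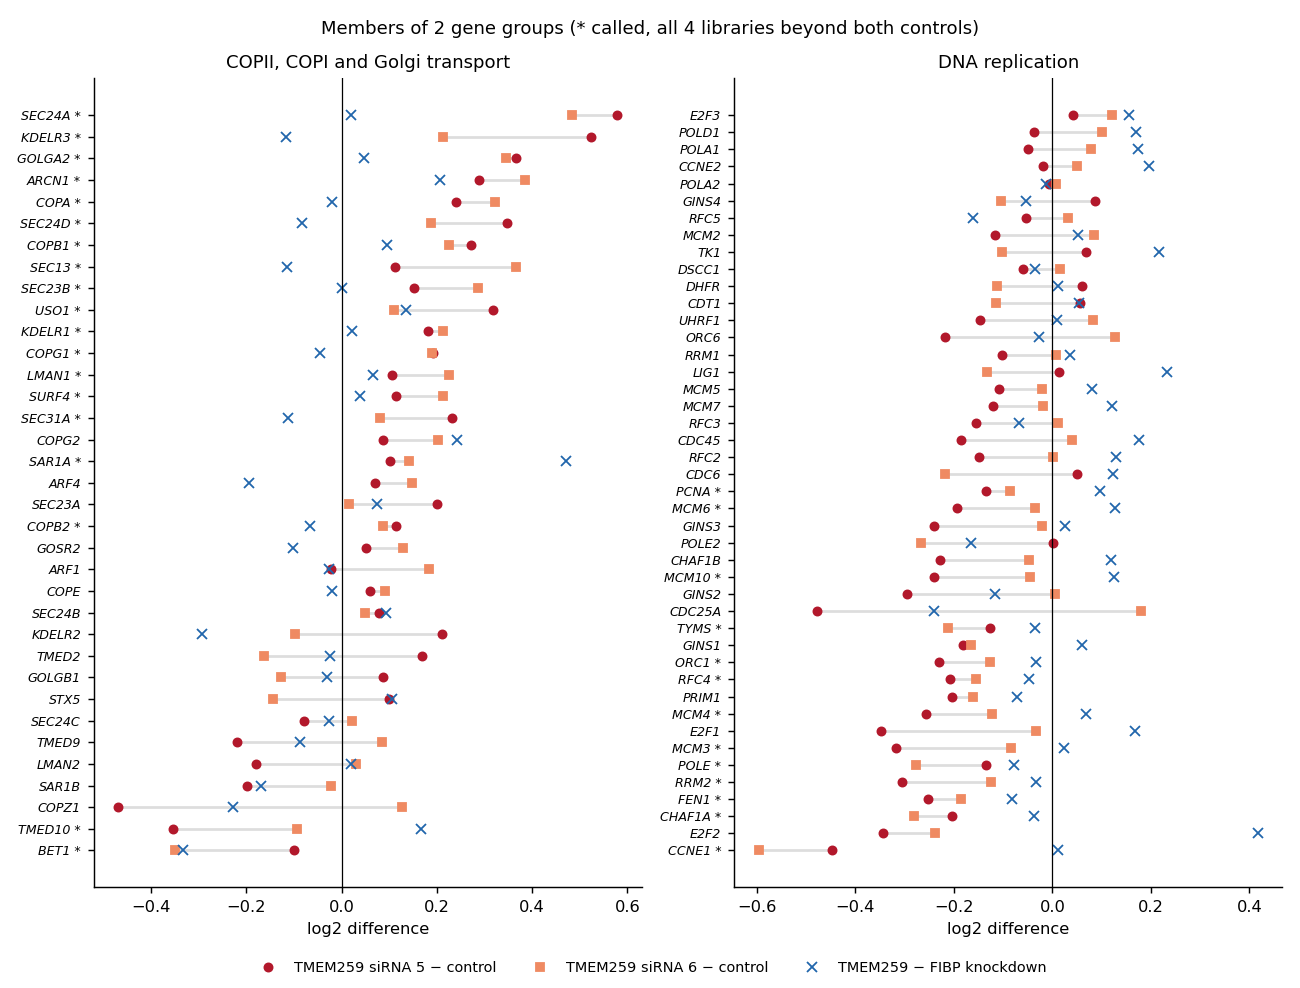
Log2 differences of the 35 tested transport genes (left) and 44 DNA replication genes (right), with circles for TMEM259 siRNA 5 minus control, squares for TMEM259 siRNA 6 minus control and crosses for TMEM259 minus FIBP knockdown. SEC24A lies at 0.58 and 0.48 against control and at 0.02 against FIBP knockdown. The crosses have a median of -0.02 for transport genes and 0.03 for DNA replication genes. Of the DNA replication genes, 18 were called higher and 3 lower than with FIBP knockdown.

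Subunits of the respiratory chain and of ribosomes were lower as well, most ribosomal ones with 1 siRNA and not the other. Of 48 nuclear genes of oxidative phosphorylation, 11 were called lower and 0 higher, with 10 separated, and the median was -0.08, where 8.06% of all tested genes were lower. With siRNA 5, 18 were lower (median -0.12), and with siRNA 6, 8 (median -0.03), and 19 of the 48 were lower with siRNA 5 than with siRNA 6. NDUFA2, a complex I subunit, had 580.2 and 598 normalized reads with siRNA 5 and 683 and 670.3 with siRNA 6, against 786 and 759 in controls (-0.29 ± 0.06, adjusted p = 0.000148). These calls fell to 6 without control replicate 1 and to 4 without control replicate 2. Of 75 tested cytosolic ribosomal proteins, 31 were called lower and 0 higher on the mean, but 10 were separated. With siRNA 5, 71 were lower and 0 higher (median -0.20), where 12% of all tested genes were lower. With siRNA 6, 1 was lower and 14 higher (median 0.05), where 10% of all tested genes were lower and 9.36% higher. Both siRNAs share the controls, and set directly against siRNA 6, siRNA 5 had 73 of the 75 lower and 0 higher, where 16.5% of all tested genes were lower. RPL41, a 60S subunit protein, was lower with both, at 5599 and 6047 with siRNA 5 and 7223 and 7292 with siRNA 6, against 8329 and 8081 in controls. Ribosomal protein genes have many processed copies, which can take some of their reads. The 31 calls on the mean fell to 15 without control replicate 1 and to 11 without control replicate 2.

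HIF targets gave calls in both directions. Of 32 tested, 9 were called lower and 4 higher, where 8.06% of all tested genes were lower and 7.72% higher. Of the 32, 6 and 2 were separated, where 5.93% and 5.99% of all tested genes were. With siRNA 5, 7 were higher and 11 lower (median 0.02), and with siRNA 6, 4 and 10 (median -0.05). Lower shares over all tested genes were 12% with siRNA 5 and 10% with siRNA 6. The changed genes named next all fell on the mean of both siRNAs, and the 4 called higher are not named here. NDRG1, a hypoxia-induced stress protein, had 2389 and 2493 normalized reads with siRNA 5 and 2632 and 2734 with siRNA 6, against 3831 and 3543 in controls (-0.53 ± 0.04, adjusted p = 5.28e-13). CCND1, cyclin D1, a HIF target of renal carcinoma cells, had 5097 and 5469 with siRNA 5 and 6296 and 5951 with siRNA 6, against 7683 and 7118 in controls (-0.38 ± 0.04, adjusted p = 7.39e-11). BNIP3L, a mitophagy receptor, had 481 and 459 with siRNA 5 and 391 and 409 with siRNA 6, against 640.0 and 569 in controls (-0.48 ± 0.06, adjusted p = 2.44e-07). The knockdown libraries of all 3 lay below both controls. HILPDA, a lipid droplet protein, fell by 0.59 ± 0.11, and EGLN3, a HIF prolyl hydroxylase, by 0.24 ± 0.06. VEGFA, the angiogenic factor, was lower with siRNA 5 (-0.40, adjusted p = 1.01e-08) and at 0.04 with siRNA 6 (adjusted p = 0.623). EPAS1 had 901 and 903 with siRNA 5 and 845 and 851 with siRNA 6, against 883 and 844 in controls, which overlap, a difference of 0.02 (adjusted p = 0.856). EGLN3 (-0.23) and VEGFA (-0.12, on the mean of both siRNAs) did not pass without control replicate 1. The 9 lower calls were 6 without control replicate 1, and the 4 higher calls were 1 without control replicate 1 and 2 without control replicate 2 or replicate 2 of siRNA 6.

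Matrix, inflammatory and amino acid stress genes moved in both directions. Of 29 matrix and mesenchymal genes, 7 were called higher and 6 lower, with 5 and 3 separated, where 7.72% of all tested genes were higher and 8.06% lower. With siRNA 5, 9 were higher and 3 lower, and with siRNA 6, 4 and 10. Among all 11768 tested genes, siRNA 5 had 1274 higher and 1410 lower (12%), and siRNA 6 had 1102 (9.36%) and 1180 (10%). COL6A3, a collagen VI chain, had 1403 and 1716 normalized reads with siRNA 5 and 2054 and 1826 with siRNA 6, against 2895 and 2439.8 in controls (-0.62 ± 0.06, adjusted p = 2.01e-11). TNC, tenascin C, had 4237 and 4061 with siRNA 5 and 2808 and 3118 with siRNA 6, against 2584 and 2688 in controls (0.41 ± 0.04, adjusted p = 6.58e-11), and LAMC1, a laminin chain, rose by 0.25 ± 0.03. Without control replicate 2, 2 of this list were called lower, and with replicate 1 of siRNA 5 or control replicate 1 left out, 4 were. Of 23 NF-kB targets and cytokines, 7 were called higher and 1 lower, with 3 and 1 separated. With siRNA 5, 11 were higher and 1 lower (median 0.25), and with siRNA 6, 5 and 5 (median -0.02). Of the 23, 14 were higher with siRNA 5 than with siRNA 6, where 15.6% of all tested genes were. ICAM1, an adhesion molecule for leukocytes, rose to 2315 and 2314 with siRNA 5 and 1699 and 1868 with siRNA 6, against 1434 and 1578 in controls (0.43 ± 0.05, adjusted p = 1.03e-09), and BIRC3, an inhibitor of apoptosis, fell by 0.29 ± 0.05. Without control replicate 1, 3 of these genes were called higher. Of 29 ATF4 targets, 4 were called higher and 6 lower, with 2 and 6 separated, and the counts were 4 and 6 with siRNA 5 and 6 and 5 with siRNA 6. DDIT4, an mTORC1 inhibitor, had 2576 and 2689.9 with siRNA 5 and 2969 and 3035 with siRNA 6, against 3732 and 3686 in controls (-0.40 ± 0.04, adjusted p = 5.85e-10), and ATF4 itself was called lower, at -0.21 on the mean, with -0.35 for siRNA 5 and -0.06 for siRNA 6. The higher ATF4 target calls fell to 1 with either control left out.

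On the mean, few genes of the nuclear speckle and mRNA export lists were called, and the siRNAs split them. Of 39 speckle and SR protein genes, 2 were called higher and 4 lower, with 2 and 1 separated, and of 27 export genes 1 and 3 were called, with 1 and 1 separated, where 7.72% of all tested genes were higher and 8.06% lower. With siRNA 5, 1 speckle gene was higher and 14 lower, and with siRNA 6, 8 and 2. All 11768 tested genes gave 1274 higher and 1410 lower (12%) with siRNA 5, and 1102 (9.36%) and 1180 (10%) with siRNA 6. Of the 39 speckle genes, 20 were lower with siRNA 5 than with siRNA 6, where 16.5% of all tested genes were. For export genes the counts were 0 higher and 7 lower with siRNA 5, and 6 and 2 with siRNA 6. CLK1, a kinase of SR proteins, had 571 and 514 normalized reads with siRNA 5 and 578 and 608 with siRNA 6, against 744 and 707 in controls (-0.36 ± 0.06, adjusted p = 2.76e-05). NCBP2, a subunit of the nuclear cap-binding complex, fell by 0.29 ± 0.04. Gamma-secretase and Notch genes gave 1 higher and 3 lower calls of 26, with 1 and 1 separated. JAG1, a Notch ligand, fell to 481 and 553 with siRNA 5 and 655 and 734 with siRNA 6, against 794 and 888 in controls (-0.49 ± 0.07, adjusted p = 2.57e-07). For the remaining lists the calls were 1 higher and 2 lower of 17 (glycolysis), 1 and 3 of 27 (p53 targets), 1 and 1 of 19 (ERK output), 2 and 0 of 27 (interferon), 5 and 2 of 26 (YAP and SRF targets) and 1 and 0 of 10 (kidney tubule). They were 1 and 5 of 18 (heat shock), 1 and 4 of 31 (proteasome), 3 and 3 of 21 (NRF2) and 2 and 0 of 15 (amino acid transport). Proteasome subunits also split, with 0 higher and 15 lower for siRNA 5 and 1 and 2 for siRNA 6, and so did p53 targets, with 7 and 3 for siRNA 5 and 1 and 6 for siRNA 6.

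The 2 siRNAs gave partly different RNA profiles. Set directly against each other, 3776 genes (32.1%) differed, 1835 (15.6%) higher and 1941 (16.5%) lower with siRNA 5. Without replicate 1 of siRNA 6 these counts were 1195 and 1234. Against the shared controls, siRNA 5 gave 2684 calls (22.8%), 1274 higher and 1410 lower (12%), and siRNA 6 gave 2282 (19.4%), 1102 higher (9.36%) and 1180 lower (10%). The siRNA 5 counts were 703 and 811 without control replicate 1, 938 and 938 without control replicate 2, 832 and 961 without its own replicate 1 and 807 and 950 without its own replicate 2. The siRNA 6 counts were 643 and 683 without control replicate 1, 670 and 692 without control replicate 2 and 542 and 538 without its own replicate 1. Of the 1403 separated genes, 918 showed no call between the siRNAs, and in 485 the siRNAs differed, 274 with the larger change for siRNA 5 and 211 for siRNA 6. There were 255 genes called in opposite directions, 123 higher with siRNA 5 and 132 higher with siRNA 6. KYNU, kynureninase of tryptophan breakdown, had 111 and 109.6 normalized reads with siRNA 5 and 31.9 and 40.0 with siRNA 6, against 54.0 and 61.4 in controls, so that each siRNA's libraries lay on a different side of the controls. The difference of siRNA 5 minus siRNA 6 was 1.60 ± 0.18 (adjusted p = 1.83e-09). TNFRSF12A, the TWEAK receptor, had 2741 and 2762 with siRNA 5 and 5928 and 5674 with siRNA 6, against 4795 and 4793 in controls (siRNA 5 minus siRNA 6 -1.08 ± 0.04, adjusted p = 1.59e-25).

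Further genes differed between the siRNAs, and FECH, UBR7 and C12orf49 moved with 1 siRNA while the other stayed near control. FECH, ferrochelatase of heme synthesis, had 538 and 548 normalized reads with siRNA 5 and 168 and 211 with siRNA 6, against 524 and 582 in controls, so siRNA 6 libraries alone were low. UBR7, a ubiquitin ligase of the N-recognin family, had 308 and 345 with siRNA 5 and 682 and 753 with siRNA 6, against 700.4 and 702 in controls, so siRNA 5 libraries alone were low. C12orf49, a SREBP pathway regulator of the Golgi, had 263 and 295 with siRNA 5 and 654 and 671 with siRNA 6, against 618 and 601 in controls. The differences between the siRNAs were 1.53 (FECH), -1.13 (UBR7) and -1.25 (C12orf49), with adjusted p of 2.05e-18, 1.23e-16 and 2.19e-18. HNRNPM, a splicing regulator picked after its values were seen because its adjusted p on the mean (1.08e-16) came next after that of TMEM259, had 7961 and 8141 with siRNA 5 and 4419.8 and 4650.4 with siRNA 6, against 8754 and 8704 in controls. Of 27 interferon genes, 14 were higher with siRNA 5 than with siRNA 6 and 0 lower, where 15.6% of all tested genes were higher. IFIT3, an interferon-induced RNA-binding protein, had 525 and 525 with siRNA 5 and 272 and 259 with siRNA 6, against 297 and 339 in controls, with siRNA 5 libraries above and siRNA 6 libraries below both controls. FIBP, the target of the other siRNAs in the table, had 519 and 556 with TMEM259 siRNA 5 and 401 and 372 with TMEM259 siRNA 6, against 539 and 541 in controls, and was lower with siRNA 6 (-0.48, adjusted p = 0.00176).

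Knockdown of FIBP, a protein that binds fibroblast growth factor 1, was set against that of TMEM259 directly. TMEM259 minus FIBP knockdown gave 4366 calls (37.1%), 2214 higher (18.8%) and 2152 lower (18.3%), and this contrast sets the means of both siRNAs of each target against each other and does not use the controls. The 2 FIBP siRNAs can lie far apart, so the values of each are given for some genes, and the mean alone for others. Of the 705 separated genes that rose with TMEM259 knockdown, 301 were also called above the mean of FIBP knockdown, 325 were not called against it and 79 were below it. Of the 698 that fell, 350 were also called below that mean, 284 were not called and 64 were above it. These counts did not require the TMEM259 libraries to lie apart from those of each FIBP siRNA. MMP2, for example, was called lower (-0.28), but its 372 and 345 with FIBP siRNA 7 lay within the range of its TMEM259 libraries. MMP13 had 37.5 and 36.5 normalized reads with TMEM259 siRNA 5 and 54.9 and 50.5 with TMEM259 siRNA 6. It had 109 and 111 with FIBP siRNA 6 and 78.5 and 71.0 with FIBP siRNA 7, a difference from their mean of -1.02 ± 0.13 (adjusted p = 9.43e-09). SCG5 had 187 and 185 with TMEM259 siRNA 5 and 164 and 161 with TMEM259 siRNA 6. It had 253 and 228 with FIBP siRNA 6 and 752 and 828 with FIBP siRNA 7, which differed widely from each other. The difference of TMEM259 minus FIBP knockdown was -1.32 ± 0.07 (adjusted p = 1.59e-20 in limma). EVI2A (-0.94), the chromatin protein HMGA1 (-1.18) and TMEM158 (-1.12) were likewise lower than the mean of FIBP knockdown, but lay nearer to FIBP siRNA 6 than to FIBP siRNA 7. EVI2A had 72.1 and 66.0 with TMEM259 siRNA 5 and 62.9 and 64.1 with TMEM259 siRNA 6, against 83.1 and 92.7 with FIBP siRNA 6 and 171 and 199.9 with FIBP siRNA 7. HMGA1 had 51.2 and 61.3 and 73.9 and 66.5 in the same TMEM259 groups, which overlap the 65.9 and 98.4 of FIBP siRNA 6, against 233 and 280.1 with FIBP siRNA 7. TMEM158 had 142 and 139 and 153 and 125, against 196 and 194 with FIBP siRNA 6 and 459 and 482 with FIBP siRNA 7. Against control, HMGA1 did not pass without control replicate 1 (-0.48), and TMEM158 did not pass with either control left out (-0.31 without replicate 1, -0.27 without replicate 2) or without replicate 2 of siRNA 5 (-0.28) or of siRNA 6 (-0.22). L1CAM had 99.5 and 82.5 with TMEM259 siRNA 5 and 65.9 and 86.5 with TMEM259 siRNA 6. It had 45.8 and 47.5 with FIBP siRNA 6 and 53.7 and 38.6 with FIBP siRNA 7 (0.83 ± 0.14, adjusted p = 6.8e-06 in limma). FILIP1L (0.75), DNAJC6 (0.76), the creatine transporter SLC16A12 (1.70) and the secreted glycoprotein FSTL1 (0.83) were also higher than the mean of FIBP knockdown. DNAJC6 had 144 and 127 with FIBP siRNA 6 and 86.8 and 74.1 with FIBP siRNA 7. FSTL1 had 16268 and 15810.3 with TMEM259 siRNA 5 and 12449.8 and 13265 with TMEM259 siRNA 6, against 12733 and 12968 with FIBP siRNA 6, which overlap TMEM259 siRNA 6, and 5330.1 and 4812 with FIBP siRNA 7. SLC16A12 had 281 and 206 with TMEM259 siRNA 5 and 95.8 and 91.3 with TMEM259 siRNA 6, against 81.2 and 70.1 with FIBP siRNA 6 and 30.3 and 24.4 with FIBP siRNA 7.

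Some genes that changed against control lay close to FIBP knockdown. SEC24A averaged 1560.1 ± 78.4 normalized reads in TMEM259 knockdown, against 1538 ± 50.9 (SD, n = 4 each) in FIBP knockdown, a difference of 0.02 (95% interval -0.06 to 0.10, adjusted p = 0.728). TECPR2 differed by 0.08 (-0.13 to 0.28, adjusted p = 0.588), GOLGA2 by 0.05 (-0.02 to 0.12, adjusted p = 0.277) and CCNE1 by 0.01 (-0.15 to 0.18, adjusted p = 0.931). DESI2 was lower than with FIBP knockdown (-0.22), in every library. ICAM1 was lower than the mean of FIBP knockdown (-0.12) but not than both FIBP siRNAs, which had 2999 and 2835 (siRNA 6) and 1746 and 1590.4 (siRNA 7). As lists, transport genes had 7 of 35 higher and 12 lower than with FIBP knockdown, with a median of -0.02, where 18.8% of all tested genes were higher and 18.3% lower, and DNA replication genes had 18 of 44 higher and 3 lower, with a median of 0.03. Among HIF targets, EGLN3 was higher than with FIBP knockdown (0.48), in every library. NDRG1 lay between the FIBP siRNAs, with all 4 TMEM259 libraries above the 1939 and 2106 of FIBP siRNA 6 and below the 5085 and 4595 of FIBP siRNA 7. BNIP3L overlapped FIBP siRNA 6 (482 and 458) and lay below FIBP siRNA 7 (712 and 698). IGFBP3, an IGF carrier, was higher than the mean of FIBP knockdown (0.64), and its TMEM259 siRNA 5 libraries (7615 and 8034) overlapped those of FIBP siRNA 7 (8189 and 6902). Of 24 cholesterol synthesis genes, 15 were higher and 0 lower than with FIBP knockdown. Both knockdowns share the controls, so their differences from control are not independent.

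**Figure D5:**
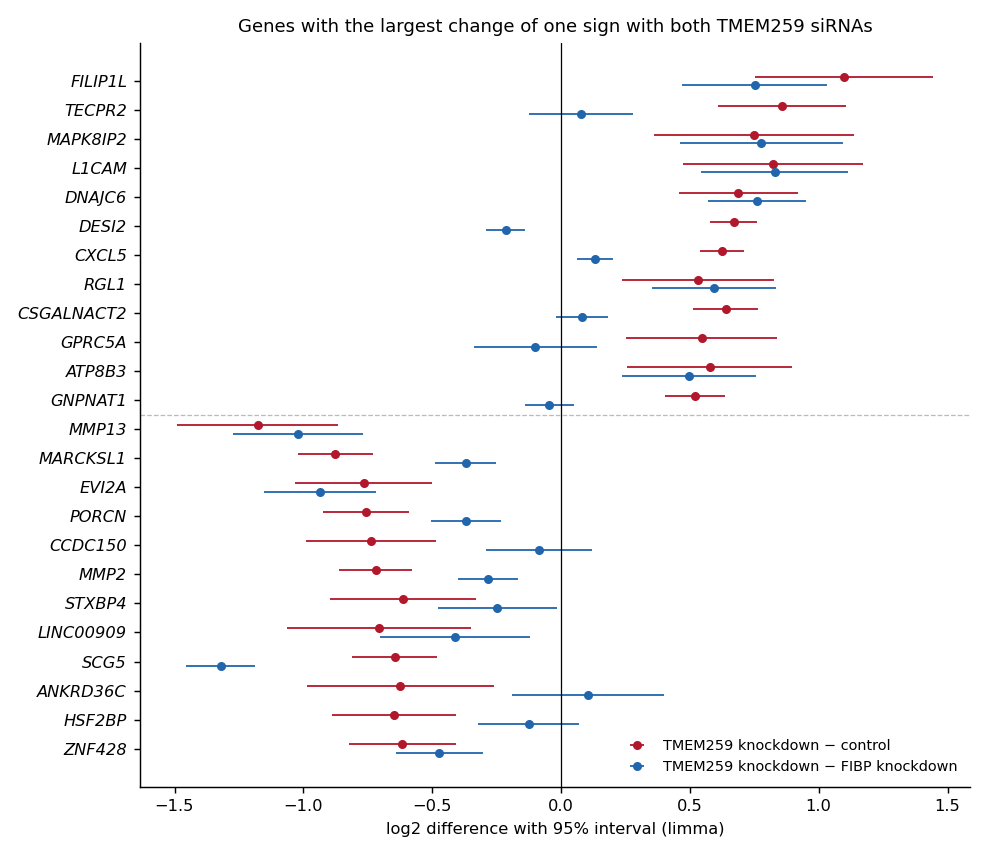
Log2 differences with 95% limma intervals for the 12 genes that rose (top) and the 12 that fell (bottom) most with both TMEM259 siRNAs, for TMEM259 knockdown minus control (red) and TMEM259 knockdown minus FIBP knockdown (blue). FILIP1L and MMP13 stand clear of 0 in both, at 0.75 and -1.02 against FIBP knockdown, while the interval of TECPR2 against FIBP knockdown crosses 0.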

How the data were processed

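Poly(A) RNA of 786-O cells was sequenced in 10 libraries of 5 groups held in 1 table. The submitters' processing notes name STAR, Picard, HTSeq, DESeq2 and hg19, with no versions or roles. The deposited signal values are gene counts that the authors divided by 1 size factor per library: all values of all libraries came out as whole multiples of the value of 1 read (tolerance 0.0001, 100% of values), so whole reads were recovered for count tests. In the TMEM259 and control libraries, entries that name no gene held 1.33% to 1.41% (ambiguous), 5.66% to 5.95% (no feature) and 20.6% to 21.4% (not unique) of the reads. These are shares of the reads in genes and in such entries together. The entries stayed out of gene totals and tests.

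Values were taken as log2(value + 1), and 11768 genes with a table mean of at least 10 were fitted with limma 3.58.1 in R 4.3.3, with 1 mean per group over all 10 libraries and a trended prior. The fit had 5 residual and 38.37 prior degrees of freedom, so each p-value rests more on the spread shared across genes than on the gene's own libraries. Fold changes on this scale understate those of low genes. Contrasts were the mean of both TMEM259 siRNAs and each siRNA against control, siRNA 5 against siRNA 6, and TMEM259 against FIBP knockdown. Tests were two-sided, with Benjamini-Hochberg adjustment over all tested genes and a threshold of 0.05. A called gene was separated when all 4 knockdown libraries lay beyond both controls.

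Alternatives used edgeR 4.0.16 and DESeq2 1.42.0 on the recovered reads, another pseudocount, filter and scaling, and a replicate block. Each TMEM259 and control library was also left out in turn, and no FIBP library was. The fits were tested on simulated data. The members and the 31 gene lists were chosen with earlier results of these data known. The rule for named genes took TMEM259, its partners, the top 12 genes in each direction (ranked by whichever siRNA changed them less, table mean at least 50), up to 4 separated members of each list, and up to 5 genes in each direction between siRNAs and against FIBP knockdown. A further 28 genes were named after their values were seen: COPA, COPB1, COPG1, SEC13, SEC23B, SEC31A, BET1, TMED10, COPZ1, CALR, HSPA5, DDIT3, XBP1, VCP, LAMP2, POLE, MCM3, MCM4, PCNA, E2F1, EGLN3, VEGFA, EPAS1, ATF4, IGFBP3, HNRNPM, IFIT3 and FIBP. Promoter sequences are from RefSeq on GRCh38.p14, matched by gene symbol.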

Additional observations from a re-analysis of the deposited data

Results flagged for a closer look

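In 8 of the genes named in the text, the 2 TMEM259 siRNAs were called on opposite sides of the shared controls. The difference between the siRNAs, which does not use the controls, was also called in limma. That call adds no separate support, because named genes were picked partly by it or after their values were seen. All 255 genes called in opposite directions were called between the siRNAs too. The largest were KYNU, kynureninase, with siRNA 5 minus siRNA 6 at 1.60 (siRNA 5 0.92 and siRNA 6 -0.67 against control, adjusted p of the difference = 1.83e-09) and FAM198B, a Golgi protein also named GASK1B, at 1.49 (0.97 and -0.52, adjusted p = 2.84e-10). SLFN5, a Schlafen family member, differed by 1.40 (0.82 and -0.58, adjusted p = 9.81e-13), and IFIT3, an interferon-induced gene, by 0.98 (0.72 and -0.26, adjusted p = 3.11e-11). In the other direction, the zinc finger gene ZNF548 differed by -1.28 (-0.65 for siRNA 5, 0.64 for siRNA 6, adjusted p = 6.89e-06) and THOC3, an mRNA export factor, by -1.23 (-0.995 and 0.23, adjusted p = 2.51e-16). TNFRSF12A, the TWEAK receptor, differed by -1.08 (-0.80 and 0.27, adjusted p = 1.59e-25) and COPZ1, a COPI subunit, by -0.60 (-0.47 and 0.13, adjusted p = 9.04e-16). A cause of these differences was not tested.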

How the results depend on the processing

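Under 14 alternatives no called value changed direction, TMEM259 stayed called in each (leave-one-out range of the mean of both siRNAs -1.42 to -1.34), and 158 of 2172 named-gene values no longer passed while 9 passed that had not. DESeq2 on recovered reads called 500 genes higher and 483 lower on the mean of both siRNAs, 419 and 373 of them separated, 748 and 804 with siRNA 5, 656 and 590 with siRNA 6, 1178 and 1246 between siRNAs, and 1418 lower than FIBP knockdown. Requiring each siRNA to be called on its own left 301 separated genes higher and 284 lower. edgeR called 1015 and 1018. TMEM259 and control libraries were left out in turn, but no FIBP library was, so the FIBP side of that contrast was not varied. Leave-one-out ranges on the mean were 374 to 792 higher and 404 to 844 lower, and separated 350 to 681 and 355 to 665. They were 703 to 1244 and 811 to 1376 with siRNA 5, 542 to 1111 and 538 to 1166 with siRNA 6, 1195 to 1801 and 1234 to 1889 between siRNAs, and 1890 to 2159 and 1844 to 2104 against FIBP knockdown. Replicate numbers did not pair the samples (correlations of deviations -0.044 to 0.055 over 10 pairs of groups), and a replicate block gave 825 higher and 876 lower. Scaling moved the median of all genes by less than 0.01. The cause of these shifts was not tested.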
